A study of Mus musculus with 12 samples.

Results

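The thrombospondin family was read in the left ventricle of mice on all 12 arrays of the study. It comprised 5 genes, Thbs1, Thbs2, Thbs3, Thbs4 and Comp (cartilage oligomeric matrix protein, also counted as the fifth thrombospondin), of 20021 genes with a symbol on the array. The 5 genes were chosen by name, with earlier results of these data known. They had 6 of the 39429 probes, since Thbs3 had 2, and all 6 were among the 30347 probes bright enough to be tested (clearly above background on 3 or more arrays). Each of the 4 groups held 3 arrays, all from C57/Bl6 mice and all taken 21 days after surgery. They were transgenic TAC and transgenic sham hearts, from mice overexpressing CnAb1 (a form of the phosphatase subunit calcineurin A beta made by alternative splicing), and wild-type TAC and wild-type sham hearts, which lacked the transgene. TAC is a band placed on the aorta, which raises the pressure that the left ventricle works against. The sources used here do not give the promoter that drives the transgene, and a separate time label gives 0 for both sham groups, whose hearts were collected on day 21 by the protocol. Since the labels do not tie arrays to separate animals, p-values measure only the spread between arrays, which may be technical.

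Thrombospondins are secreted, calcium-binding glycoproteins that join into multimers and sit between cells and the extracellular matrix. Thbs1 and Thbs2 form trimers, carry type 1 repeats and bind cell surface receptors such as Cd36 and Cd47, while Thbs3, Thbs4 and Comp form pentamers without those repeats and bind collagens and other matrix proteins. In the heart the family is known for its rise with injury and pressure load.

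Promoter sequences from RefSeq (assembly GRCm38.p6) were at hand for 3 of the 5 members, Thbs2, Thbs3 and Thbs4, and are printed because Thbs3 and Thbs4 both rose after TAC in wild-type hearts while Thbs2 did not pass the test. Each runs 5′ to 3′ on the gene's own strand, from 250 bases before to 50 bases after the transcription start. The Thbs2 window is chr17:14694213-14694512 on the minus strand, the Thbs3 window chr3:89214930-89215229 on the plus strand and the Thbs4 window chr13:92794769-92795068 on the minus strand. Capitals mark matches on either strand to the motifs described after the sequences.
Thbs2: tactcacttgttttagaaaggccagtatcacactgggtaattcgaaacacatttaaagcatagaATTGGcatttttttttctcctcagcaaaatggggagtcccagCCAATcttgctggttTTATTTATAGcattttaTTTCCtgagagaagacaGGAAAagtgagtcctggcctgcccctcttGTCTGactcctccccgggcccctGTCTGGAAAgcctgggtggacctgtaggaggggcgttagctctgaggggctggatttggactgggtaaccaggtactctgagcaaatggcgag
Thbs3: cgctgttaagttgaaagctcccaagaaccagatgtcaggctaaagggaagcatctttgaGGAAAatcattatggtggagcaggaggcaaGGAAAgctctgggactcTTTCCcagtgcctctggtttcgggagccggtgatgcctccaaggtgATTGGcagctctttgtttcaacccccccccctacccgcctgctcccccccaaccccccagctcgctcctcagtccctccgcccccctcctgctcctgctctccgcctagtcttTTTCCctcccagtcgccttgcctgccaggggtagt
Thbs4: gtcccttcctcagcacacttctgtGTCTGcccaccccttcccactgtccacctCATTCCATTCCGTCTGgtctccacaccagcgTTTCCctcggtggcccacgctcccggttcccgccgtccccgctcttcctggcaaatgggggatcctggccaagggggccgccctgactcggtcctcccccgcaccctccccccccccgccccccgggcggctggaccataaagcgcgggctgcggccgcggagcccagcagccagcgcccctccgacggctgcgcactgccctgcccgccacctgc

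The motif searched first was GGAAA, the core letters bound by NFAT, the transcription factors that calcineurin activates. It occurred 3 times in the Thbs2 window, 4 times in the Thbs3 window and once in the Thbs4 window. Of 32851 promoter windows of the same length, 61.3% held it. Here and below a window counts as holding a motif from 1 match on, so the shares do not tell how usual several matches are. CAGAC, the box bound by SMAD proteins downstream of TGF-beta, occurred 2 times each in the Thbs2 and Thbs4 windows and 0 times in the Thbs3 window, against 49.6% of windows that held it. The Thbs4 window held GGAATG, the motif of TEAD factors, 2 times in overlap by 1 base, and 14.7% of windows held that motif. The Thbs2 window held a MEF2 motif (3.19% of windows), which overlapped a match to TATAAA (13.6% of windows). CCAAT occurred 2 times in the Thbs2 window and once in the Thbs3 window (37.4% of windows), and TGANTCA, the AP-1 motif, in none of the 3 (7.81% of windows). Neighbouring matches overlapped in places, as where CAGAC and GGAAA share letters in Thbs2. A match describes letters in these windows only.

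Levels are log2 processed signals minus each array's 75th percentile, so that 0 stands at that percentile, and levels of different probes are not compared. The 75th percentile lay between 9.48 and 9.86 on transgenic TAC arrays, 9.50 and 9.51 on transgenic sham, 9.88 and 9.95 on wild-type TAC and 8.97 and 9.24 on wild-type sham arrays. Transgenic sham array 2 stood apart: its negative controls averaged 48.6 net of background, where the others gave 15.4 to 21.0, and 37.0% of its probes were well above background, against 60.2% to 78.1%. On that array alone Thbs1, Thbs2 and Comp were not well above background, and member differences that rest on it are given with and without it. The tissue carried its label: the heart muscle genes Myh6, Tnnt2 and Actc1 were bright on all arrays, with mean levels of 8.38, 8.22 and 8.93 on transgenic TAC arrays. Ppp3cb, the gene that encodes calcineurin A beta, had a mean level of 1.31 ± 0.12 in transgenic sham and 1.59 ± 0.04 in wild-type sham hearts (SD, n = 3 each), so its probe was not higher with the transgene, and whether that probe reads the variant was not tested.

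The comparison of TAC with sham asks how pressure load changes the family in each genotype. In transgenic hearts no member passed the test. In wild-type hearts Comp, Thbs1, Thbs4 and Thbs3 rose, by 96.1-fold, 15.1-fold, 14.3-fold and, over its 2 probes, 4.61-fold and 4.28-fold, while Thbs2 did not pass. Of the 6 probes, 0 passed in transgenic hearts by limma, where 0% of all 30347 probes did, and 1 of the 6 (Thbs4) had an unadjusted p under 0.05, as did 6.25% of all probes. In wild-type hearts 5 of the 6 passed, all of them upward, beside 8.57% of all probes that passed upward and 12.4% downward. Since the members were chosen with earlier results known, counts of members beside all probes are descriptions. The split of all probes into upward and downward moved with the scaling. It went from 2601 upward and 3777 downward here to 3437 and 2211 with the percentile taken over probes bright on all arrays and 2517 and 2355 after quantile normalization, and the same 5 member probes passed upward under each. A call here is an adjusted p under 0.05 by limma after Benjamini-Hochberg adjustment over all 30347 probes. The median log2 difference over the 6 probes was 0.18 in transgenic hearts and 3.02 in wild-type hearts, and over all probes tested it was -0.01 and -0.12. In a bulk section of ventricle, fewer cells of a type and less RNA per cell cannot be told apart.

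**Figure D1:**
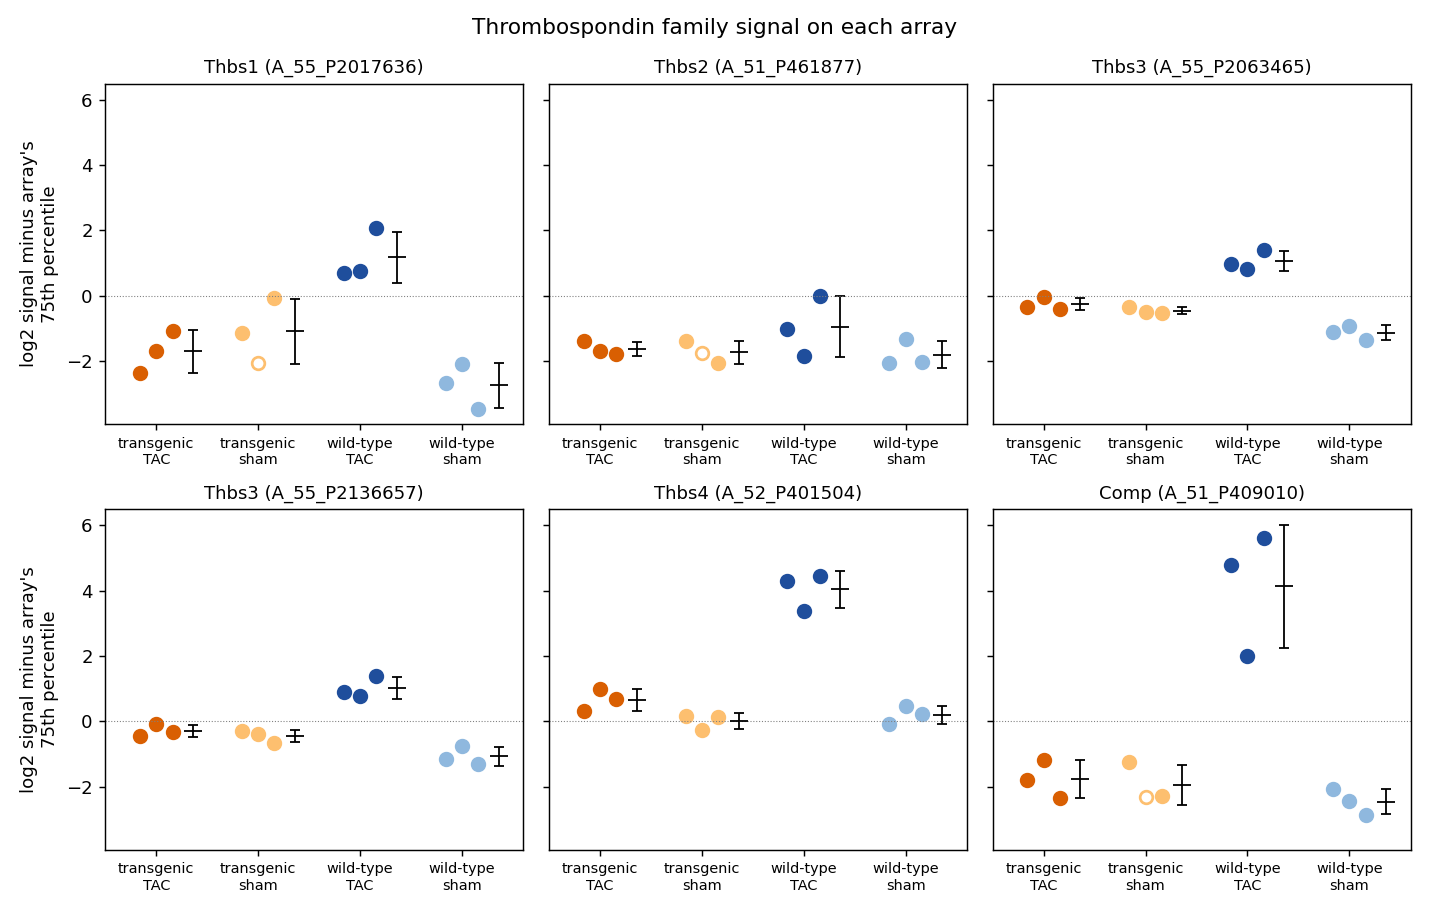
Level of each thrombospondin probe on each array (log2 signal minus the array's 75th percentile, vertical axis) for the 4 groups of 3 arrays. Points are arrays, open where the probe was not well above background, and the bar beside them is the mean with its SD; wild-type TAC arrays lie above all others for Thbs1, both Thbs3 probes, Thbs4 and Comp, with Comp at 2.01 to 5.60, and overlap the other groups for Thbs2.

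Thbs1, the trimeric form stored in platelet granules and able to release TGF-beta from its latent complex, had levels of -2.37, -1.68 and -1.07 on the transgenic TAC arrays, against -1.15, -2.05 and -0.08 on the transgenic sham arrays. Its levels were 0.69, 0.75 and 2.08 on the wild-type TAC arrays, against -2.68, -2.10 and -3.46 on the wild-type sham arrays. The wild-type TAC arrays were the highest of the 12, the wild-type sham arrays lay below all transgenic sham arrays, and the transgenic groups overlapped. The log2 difference between TAC and sham was -0.61 ± 0.59 in transgenic hearts (SE, 95% interval -1.92 to 0.70, limma adjusted p = 0.847) and 3.92 ± 0.59 in wild-type hearts (limma adjusted p = 0.00287). Without transgenic sham array 2 the transgenic difference was -1.09. The wild-type difference was 3.13 with normexp background correction, which passed, and 3.06 with slide as a fixed block, which did not (limma adjusted p = 0.0563).

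Thbs2, the other trimer and a known inhibitor of blood vessel growth, was the member with the smallest differences in wild-type hearts. Its levels were -1.39, -1.70 and -1.79 on the transgenic TAC arrays, against -1.37, -1.75 and -2.07 on the transgenic sham arrays. They were -1.01, -1.85 and 0.00 on the wild-type TAC arrays, against -2.06, -1.34 and -2.03 on the wild-type sham arrays. All 4 groups overlapped, with the highest value on wild-type TAC array 3 and a value among the sham levels on wild-type TAC array 2. The TAC difference was 0.11 ± 0.41 in transgenic hearts (95% interval -0.81 to 1.03, and 0.10 without transgenic sham array 2) and 0.86 ± 0.41 in wild-type hearts (95% interval -0.06 to 1.77, limma adjusted p = 0.177). Leaving out wild-type TAC array 2 brought the wild-type difference to 1.31, which passed (limma adjusted p = 0.0339), as did 17.2% of all probes. The difference also passed when arrays were weighted by quality, a fit in which 41.1% of all probes passed, against 21% in the main fit.

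Thbs3, a pentameric form that in mice lowers integrins at the heart muscle membrane, was read by a pair of probes. On the first the levels were -0.33, -0.05 and -0.39 on the transgenic TAC arrays, against -0.35, -0.49 and -0.54 on the transgenic sham arrays. On the wild-type TAC arrays they were 0.97, 0.82 and 1.41, against -1.13, -0.92 and -1.37 on the wild-type sham arrays. The order of the groups was wild-type TAC, both transgenic groups in overlap, then wild-type sham, with gaps on either side of the transgenic groups. The second probe differed from the first by at most 0.16 on any array, and their levels had a Pearson r of 0.996 over the 12 arrays. The TAC difference was 0.20 ± 0.18 in transgenic hearts (limma adjusted p = 0.834) and 2.21 ± 0.18 in wild-type hearts (limma adjusted p = 0.000459) on the first probe. On the second probe it was 0.16 ± 0.20 in transgenic and 2.10 ± 0.20 in wild-type hearts (limma adjusted p of 0.877 and 0.000756). Without transgenic sham array 2 the transgenic differences were 0.18 and 0.20.

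Thbs4, a pentamer of tendon, muscle and injured heart that in mice also acts inside the cell with the stress sensor ATF6, had levels of 0.32, 0.99 and 0.69 on the transgenic TAC arrays, against 0.17, -0.25 and 0.13 on the transgenic sham arrays. On the wild-type TAC arrays it stood at 4.30, 3.38 and 4.44, against -0.09, 0.48 and 0.21 on the wild-type sham arrays. It was the only member whose TAC arrays all lay above the sham arrays in both genotypes. In transgenic hearts the difference was 0.65 ± 0.29 (95% interval 0.00 to 1.30, limma adjusted p = 0.791), a separation that 4.6% of all probes showed in that direction. In wild-type hearts it was 3.84 ± 0.29 (limma adjusted p = 0.000406), where 17.4% of all probes had TAC arrays wholly above sham. Without transgenic sham array 2 the transgenic difference was 0.52 ± 0.33.

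Comp, the pentamer that binds collagen and organises its fibrils in cartilage and tendon, showed the widest spread of any member. Its levels were -1.78, -1.17 and -2.33 on the transgenic TAC arrays, against -1.25, -2.33 and -2.29 on the transgenic sham arrays. They were 4.79, 2.01 and 5.60 on the wild-type TAC arrays, against -2.08, -2.43 and -2.85 on the wild-type sham arrays. Every wild-type TAC array was above every other array, yet these 3 differed among themselves by more than any other group of any member (SD 1.88). In processed signal, they measured 26139, 3824 and 48019, against 143, 93.2 and 82.5 on the wild-type sham arrays. The TAC difference was 0.19 ± 0.78 in transgenic hearts (95% interval -1.54 to 1.93, limma adjusted p = 0.962) and 6.59 ± 0.78 in wild-type hearts (95% interval 4.85 to 8.32, limma adjusted p = 0.00135). Without transgenic sham array 2 the transgenic difference was 0.01. The wild-type difference of Comp was 7.65 without wild-type TAC array 2, 5.85 without wild-type TAC array 3, 5.61 with normexp background correction and 4.87 with slide as a fixed block, and it passed in each.

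The wild-type TAC arrays kept an order across members. Array 3 was the highest of the 3 for all 6 probes, and array 2 was the lowest for Thbs2, both Thbs3 probes, Thbs4 and Comp, while array 1 was the lowest for Thbs1. Markers of tendon and cartilage, tissues rich in Comp and Thbs4, were split. After TAC in wild-type hearts 3 of the 7 measured of 9 such markers passed upward and 1 downward, 3 did not pass, and the median was -0.13, against -0.12 over all probes. Of all probes 8.57% passed upward and 12.4% downward. The summed signal of the 7, to which bright markers contribute most, in units of the array's 75th percentile, was 11.3, 6.26 and 17.6 on wild-type TAC arrays 1, 2 and 3, the same order as for Comp and Thbs4. It ranged from 4.83 to 8.0 on transgenic TAC, 3.07 to 5.15 on transgenic sham and 3.71 to 4.31 on wild-type sham arrays. The risers were Sox9 and Scx, regulators of cartilage and tendon cells, and Fmod, a collagen-binding proteoglycan (2.36 ± 0.40, 1.37 ± 0.33 and 3.37 ± 0.74). Cnmd, a cartilage marker, passed downward and was at background on all wild-type TAC arrays. In each other group it was well above background on 1 array only, so its difference is between values near the floor. Chad, Mkx and Acan measured -0.50, -0.58 and -0.13 and did not pass, and Tnmd and Col2a1, which define tendon and cartilage, were too dim to be tested. The part of these cells in the values of Comp and Thbs4 was not tested.

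Markers of other cell types were read as well. After TAC, fibroblast markers passed for 0 of 8 genes in transgenic hearts by limma, as did 0% of all probes. At an unadjusted p under 0.05 the count was 0 of 8, beside 6.25% of all probes. In wild-type hearts 8.57% of all probes passed upward and 12.4% downward, shares to set beside the counts that follow. Fibroblast markers passed upward for 5 of 8 in wild-type hearts, among them Pi16 (2.08 ± 0.19), Lum (1.93 ± 0.18) and Mfap5 (3.13 ± 0.42). Their summed signal was 221 to 251 on transgenic TAC, 222 to 250 on transgenic sham, 299 to 328 on wild-type TAC and 137 to 217 on wild-type sham arrays. Smooth muscle and pericyte markers passed upward for 4 of 7 genes in wild-type hearts. The 3 that did not pass included Acta2, the brightest of them (-0.05 ± 0.37). Their sums were 28.4 to 43.9 on transgenic TAC, 44.3 to 59.8 on transgenic sham, 30.4 to 44.3 on wild-type TAC and 24.2 to 27.7 on wild-type sham arrays. Cardiomyocyte markers passed downward for 5 of 6 in wild-type hearts, with a median of -0.73, or -0.11 after quantile normalization. Cardiomyocyte sums were 1471 to 1783 on transgenic TAC, 1609 to 1826 on transgenic sham, 1347 to 1515 on wild-type TAC and 2296 to 2404 on wild-type sham arrays. The subtracted 75th percentile was higher on wild-type TAC arrays (9.88 to 9.95) than on wild-type sham arrays (8.97 to 9.24). A probe with an unchanged signal therefore reads lower on wild-type TAC arrays, and the part of this scaling in the cardiomyocyte fall was not tested. Platelet markers, relevant to Thbs1, gave 0 of 7 passing, with sums of 4.57 to 7.01 on wild-type TAC and 4.85 to 5.39 on wild-type sham arrays. These sums rest mainly on Pf4, with a mean level of 2.34 on wild-type TAC arrays, where the other markers had means of -6.29 to -2.97. Gp1ba and Itga2b were each well above background on 1 wild-type TAC array, so the markers other than Pf4 say little about platelets. Macrophage markers passed upward for 2 of 5 measured, endothelial markers upward for 3 and downward for 1 of 5, and atrial markers for 0 of 3. The part of these shifts in the members' values was not tested.

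**Figure D2:**
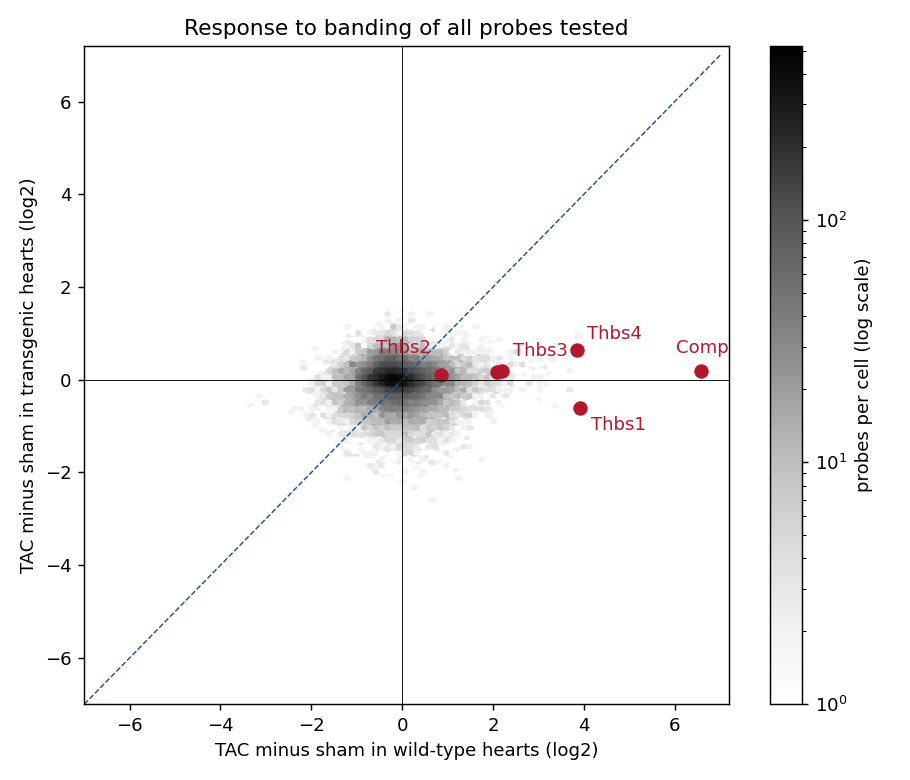
TAC minus sham in wild-type hearts (horizontal axis, log2) against the same in transgenic hearts (vertical axis, log2) for all 30347 probes, as a grey density, with the 6 thrombospondin probes in red and a dashed line of equal response. Comp lies farthest right, at 0.19 in transgenic and 6.59 in wild-type hearts, and Thbs1, Thbs3 and Thbs4 also sit below the dashed line.

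The interaction, in which the wild-type response to TAC is subtracted from the transgenic response, tests directly whether the genotypes responded differently. It passed for 5 of the 6 probes, all of them negative, beside 2.8% of all probes that passed in that direction and 4.18% in the other. Over all probes 850 passed downward and 1269 upward, against 1167 and 468 with the percentile over probes bright on all arrays, 619 and 372 after quantile normalization and 466 and 289 after median scaling, and the 5 member probes passed downward under each. The values were -4.52 ± 0.83 for Thbs1 (limma adjusted p = 0.0220), -3.19 ± 0.41 for Thbs4 (adjusted p = 0.0135) and -6.39 ± 1.10 for Comp (adjusted p = 0.0195). The Thbs3 probes gave -2.01 ± 0.25 and -1.94 ± 0.29 (limma adjusted p of 0.0135 and 0.0145), and Thbs2 gave -0.75 ± 0.58 and did not pass (95% interval -2.05 to 0.55). The median over the 6 probes was -2.60 and over all probes 0.10. Both responses enter the interaction, and the wild-type sham and TAC arrays also serve in the genotype comparisons, so the results share arrays. Without transgenic sham array 2 the interactions were -5.00 for Thbs1, -2.02 and -1.90 for Thbs3, -3.32 for Thbs4, -6.58 for Comp and -0.76 for Thbs2, and the same 5 passed. Without wild-type sham array 1, 0 of the 6 passed (limma adjusted p from 0.0507 to 0.0614 for the 5), as did 0 of all 30347 probes by limma. At an unadjusted p under 0.05 the counts were 5 and 6318, and the 5 differences lay between -6.58 and -1.90. Without transgenic TAC array 1 or wild-type sham array 3, Thbs1 and Comp no longer passed, and 3 probes did. With slide as a fixed block 0 passed (limma adjusted p from 0.166 to 0.171 for the 5), and Thbs1 was at -2.90. With normexp background correction 0 passed (limma adjusted p from 0.0679 to 0.104 for the 5). In that fit 5 of the 6 had an unadjusted p under 0.05, as did 3452 of all 30347 probes. The value for Comp was -7.45 without wild-type TAC array 2 and -5.66 without wild-type TAC array 3, and it passed in both.

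In hearts under TAC, the genotypes were compared to ask how far the transgenic ventricle differed under load. Thbs1, Thbs3, Thbs4 and Comp were lower in transgenic TAC than in wild-type TAC hearts, on 5 of the 6 probes, beside 1.79% of all probes that passed downward. The mean level of Comp was -1.76 ± 0.58 in transgenic TAC and 4.13 ± 1.88 in wild-type TAC hearts (SD, n = 3 each), a difference of -5.89 ± 0.78 (SE, limma adjusted p = 0.00661), or 59.5-fold lower. Without wild-type TAC array 2 it was -6.96 and without wild-type TAC array 3 it was -5.16, and both passed. With slide as a fixed block 0 of the 6 probes passed this comparison (limma adjusted p from 0.0571 to 0.260 for the 5). Thbs4 had a mean level of 0.67 ± 0.33 in transgenic TAC and 4.04 ± 0.58 in wild-type TAC hearts, and differed by -3.37 ± 0.29 (limma adjusted p = 0.000633). Thbs1 differed by -2.88 ± 0.59 (limma adjusted p = 0.0333), and the Thbs3 probes by -1.33 ± 0.18 and -1.31 ± 0.20 (adjusted p of 0.00729 and 0.0139). None of these 5 probes had overlapping arrays, a separation that 13.6% of all probes showed downward. Thbs2 measured -0.67 ± 0.41, with overlap (limma adjusted p = 0.378). Without transgenic TAC array 1, Thbs1 and the second Thbs3 probe did not pass (adjusted p of 0.117 and 0.0615), and Thbs1 passed in 6 of the 12 fits that each left out an array.

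In sham hearts 0 of the 6 probes passed by limma, where 0.639% of all probes passed upward and 0.587% downward. Unadjusted, 3 of the 6 had a p under 0.05, as did 17.5% of all probes. Thbs1 and Thbs3 had all their transgenic sham arrays above all wild-type sham arrays, as 8.07% of all probes did. For Thbs1 this was narrow, with -2.05 on transgenic sham array 2 against -2.10 on wild-type sham array 2. On that transgenic array Thbs1 was not well above background. Thbs1 had a mean level of -1.10 ± 0.99 in transgenic sham and -2.74 ± 0.68 in wild-type sham hearts (SD, n = 3 each), a difference of 1.65 ± 0.59 (SE, limma adjusted p = 0.192). Thbs3 differed by 0.68 ± 0.18 on its first probe and 0.63 ± 0.20 on its second (limma adjusted p of 0.0998 and 0.155). Without transgenic sham array 2 these differences were 2.13, 0.70 and 0.60, with adjusted p from 0.174 to 0.313. Thbs2 (0.08 ± 0.41), Thbs4 (-0.18 ± 0.29) and Comp (0.50 ± 0.78) overlapped between genotypes, and measured 0.09, -0.05 and 0.68 without that array.

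**Figure D3:**
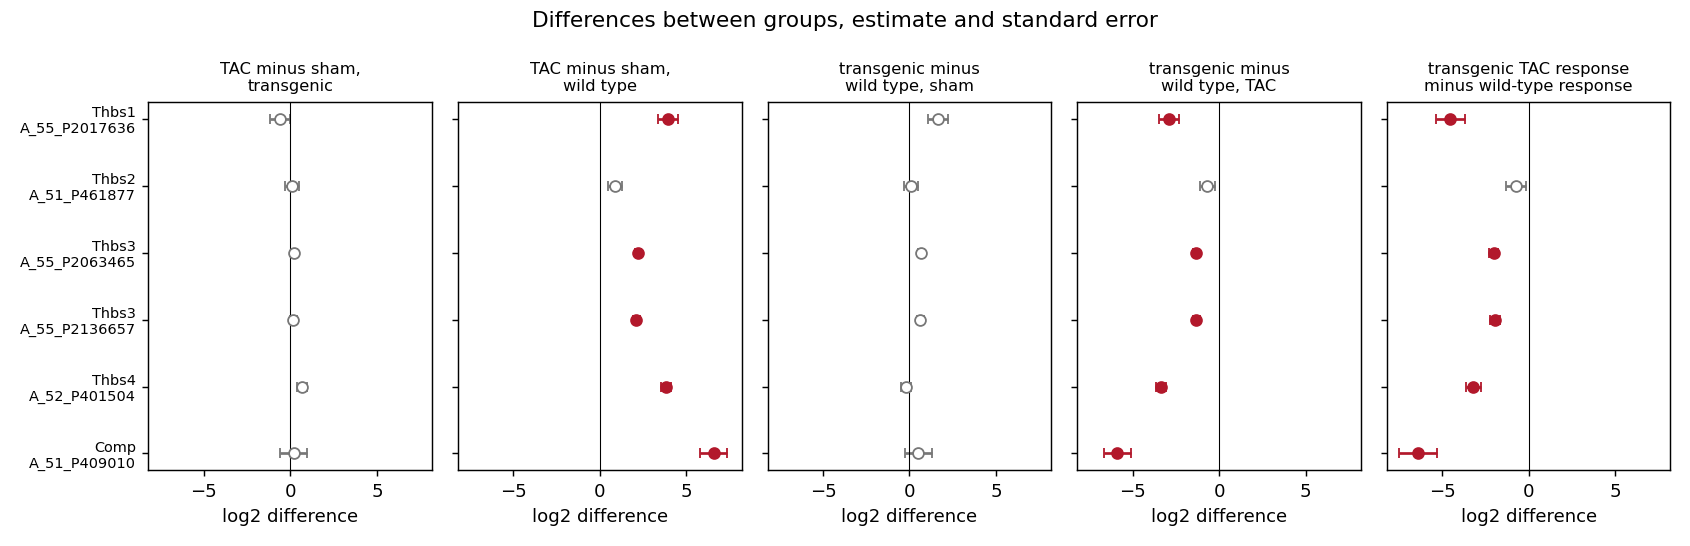
Log2 difference with its standard error (horizontal axis) for each thrombospondin probe (rows) in the 5 comparisons (panels). Filled red points passed at an adjusted p under 0.05 by limma and open grey points did not: no probe passed in the panels for TAC in transgenic hearts or genotype in sham, and 5 of 6 passed in each of the other panels, all but Thbs2.

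Arrays came on 5 slides, and slides did not hold the groups evenly, so each contrast was also read within the slides that held both groups. Slide 1 held transgenic sham array 3 alone, slide 5 wild-type sham array 3 alone and slide 4 only transgenic TAC arrays 1 and 2. With slide as a fixed block, these arrays add nothing to differences between groups. Transgenic TAC then rests on array 3 alone. On slide 2, transgenic TAC array 3 minus transgenic sham array 1 gave -1.08 for Comp, 0.53 for Thbs4, 0.08 for Thbs1, -0.05 and -0.03 for Thbs3 and -0.42 for Thbs2. On slide 3, wild-type TAC array 2 minus the mean of wild-type sham arrays 1 and 2 gave 4.26 for Comp, 3.19 for Thbs4, 3.13 for Thbs1, 1.84 and 1.73 for Thbs3 and -0.16 for Thbs2. Under TAC on slide 2, transgenic TAC array 3 minus the mean of wild-type TAC arrays 1 and 3 gave -7.53 for Comp, -3.68 for Thbs4, -2.45 for Thbs1, -1.59 and -1.48 for Thbs3 and -1.29 for Thbs2. In sham hearts on slide 3, transgenic array 2 minus the mean of wild-type arrays 1 and 2 gave -0.07 for Comp, -0.45 for Thbs4, 0.33 for Thbs1, 0.54 and 0.58 for Thbs3 and -0.06 for Thbs2. That contrast rests on the array with the raised background, on which Thbs1, Thbs2 and Comp were not well above background, and has no counterpart without it. The wild-type TAC differences of Thbs1, Thbs3, Thbs4 and Comp kept their sign within a slide. With slide as a fixed block over all probes, 3 of the 6 probes passed for TAC in wild-type hearts (Comp, Thbs4 and the first Thbs3 probe), and 0 passed for the genotype difference under TAC and for the interaction. At an unadjusted p under 0.05 each of these counts was 5 of the 6. That threshold was met by 9383, 4039 and 6927 of all 30347 probes, in the same order of comparisons. Over all 30347 probes, 238 passed for TAC in wild-type hearts under the block, against 6378 without it.

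Across the 12 arrays, Thbs4 and Comp had the most similar patterns of any pair of members, with a Pearson r of 0.97, and each was among the 7 genes most like the other of 15938 named genes. Over the 9 arrays other than wild-type TAC the same r was 0.35, so the likeness describes mainly the contrast between wild-type TAC arrays and the rest. Thbs1 with Thbs4 and Thbs1 with Comp had r of 0.84 and 0.85 over 12 arrays, and Thbs2 had r of 0.62 to 0.77 with the other members. The genes most like Comp were Pdgfrl, Ldlrad4, Ccn2 (connective tissue growth factor), Fn1 (fibronectin) and Loxl3 (a collagen crosslinking enzyme), with r of 0.98 to 0.99. Those most like Thbs4 were Fn1, Plekha4, Serpinb1a, Col4a2 (a basement membrane collagen chain) and Ldlrad4, with r of 0.97 to 0.98. The genes most like Thbs3 were Acsl5, Col14a1, Bace2, Mmp2 and Col5a1 (r of 0.99), those most like Thbs1 were Trps1, Ada, Ccdc88b, Reep3 and Wwp2 (0.97 to 0.98), and those most like Thbs2 were Fbln1, Zbtb4, Cnn2, Vcam1 and Gabra3 (0.90 to 0.94). These points share the same 12 arrays and their scaling, and the r values are descriptions.

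Genes that work with the family were read from lists, each gene by its brightest probe. Matrix proteins that bind Comp or thrombospondins passed for 0 of 21 measured genes in transgenic hearts after TAC, as did 0% of all probes (27 were listed). In wild-type hearts they passed for 16 of 21, all upward, beside 8.57% of all probes that passed upward. The median log2 difference of this list was 0.19 in transgenic and 1.5 in wild-type hearts. Fbn1, the fibrillin of microfibrils, rose by 2.99 ± 0.20, and the collagen chains Col1a2, Col5a1 and Col14a1 rose by 3.08 ± 0.27, 2.54 ± 0.23 and 3.26 ± 0.30 (limma adjusted p from 0.000334 to 0.000675). Their interactions were -2.52, -3.02, -2.54 and -3.11, and 12 of 21 genes of the list passed in that direction, beside 2.8% of all probes. In hearts under TAC, 12 of the 21 were lower in transgenic than in wild-type hearts and 0 higher, beside 1.79% of all probes that passed downward.

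Receptors that bind thrombospondins at the cell surface passed upward for 9 and downward for 2 of 21 genes in wild-type hearts, with a median of 0.48. Of all probes 8.57% passed upward and 12.4% downward there, and 2.8% passed downward and 4.18% upward in the interaction. Sdc1, a heparan sulfate proteoglycan, rose by 1.22 ± 0.13, Lrp1, the endocytic receptor that clears Thbs1, by 1.56 ± 0.17, and the integrin chain Itga6 by 1.24 ± 0.15 (limma adjusted p from 0.000932 to 0.00143). In the interaction 5 of the 21 passed downward, with Sdc1 at -1.32 and Lrp1 at -1.49, and 2 upward, with Cacna2d1, the calcium channel subunit that binds thrombospondins, at 0.64 ± 0.14 (limma adjusted p = 0.0299).

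Among TGF-beta ligands, latent binding proteins and receptors, 10 of 20 genes passed upward in wild-type hearts and 0 downward, with a median of 0.79. Over all probes 8.57% passed upward and 12.4% downward. Ltbp2 and Ltbp4, latent TGF-beta binding proteins, rose by 6.17 ± 0.50 and 1.24 ± 0.13, the ligand Tgfb2 by 2.67 ± 0.27 and Ccn2, a matrix gene that TGF-beta induces, by 2.72 ± 0.38 (limma adjusted p from 0.000459 to 0.00232). Their interactions were -5.93, -1.21, -2.31 and -2.60, and 5 of the 20 genes passed in that direction, beside 2.8% of all probes.

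Genes of ATF6 signalling and protein folding in the endoplasmic reticulum, to which Thbs4 is linked in mice, had a median of -0.12 in wild-type hearts, the same as over all probes. Of 23 genes, 8 passed downward, 1 passed upward and 14 did not pass, beside the 12.4% of all probes that passed downward. Hspa5, the main folding chaperone, measured -0.84 ± 0.12, Canx (calnexin) -0.69 ± 0.11, Dnajb9 -0.72 ± 0.12 and Sdf2l1 -0.69 ± 0.14 (limma adjusted p from 0.0025 to 0.00796). The subtracted 75th percentile was higher on wild-type TAC arrays (9.88 to 9.95) than on wild-type sham arrays (8.97 to 9.24). Its part in these falls was not tested. The interaction was 0.90 ± 0.17 for Hspa5 and 0.72 ± 0.15 for Canx, and -0.65 ± 0.16 for Mbtps1, the protease that cuts ATF6 (limma adjusted p from 0.0231 to 0.0428). In sham hearts 6 of the 23 were lower in transgenic than in wild-type hearts and 0 higher, beside 0.587% of all probes that passed downward. Over all probes the downward calls of that comparison fell from 178 to 25 without transgenic sham array 2. They fell to between 14 and 17 when a wild-type sham array was left out, and to 46 after quantile normalization. The count of 6 is not given without those arrays. The percentile was higher on transgenic sham arrays as well (9.50 to 9.51).

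Other proteins with thrombospondin type 1 repeats passed upward for 15 and downward for 3 of 42 measured genes in wild-type hearts (49 were listed), with a median of 0.62. Of all probes 8.57% passed upward and 12.4% downward there, and 2.8% passed downward and 4.18% upward in the interaction. The matrix proteases Adamts8 and Adamts2 rose by 3.85 ± 0.23 and 2.78 ± 0.24 and Adamtsl2, which binds fibrillin, by 2.61 ± 0.32 (limma adjusted p from 0.000319 to 0.00153). In the interaction 6 passed downward, with Adamts8 at -2.94 and Adamts2 at -2.73, and 1 upward, Rspo1, an activator of Wnt signalling, at 1.59 ± 0.33.

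Enzymes that cut thrombospondins or are bound by them passed upward for 4 and downward for 1 of 12 measured genes in wild-type hearts (15 were listed), with a median of 0.00. Over all probes the shares were 8.57% upward and 12.4% downward. Mmp2 and Mmp14, matrix metalloproteinases, rose by 2.37 ± 0.25 and 1.81 ± 0.35, Htra1, a secreted serine protease, measured -0.91 ± 0.17 (limma adjusted p from 0.000821 to 0.00702), and Adamts4 also passed upward but was at background in both sham groups. In the interaction Mmp2 alone passed, at -2.30 ± 0.35, beside 2.8% of all probes that passed downward. In transgenic hearts 0 of the 134 genes of all 6 lists passed for TAC by limma, as did 0% of all probes. Of the 134 genes, 8 had an unadjusted p under 0.05, beside 6.25% of all probes. The lists share genes, as Ccn2 stands in a pair of them.

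**Figure D4:**
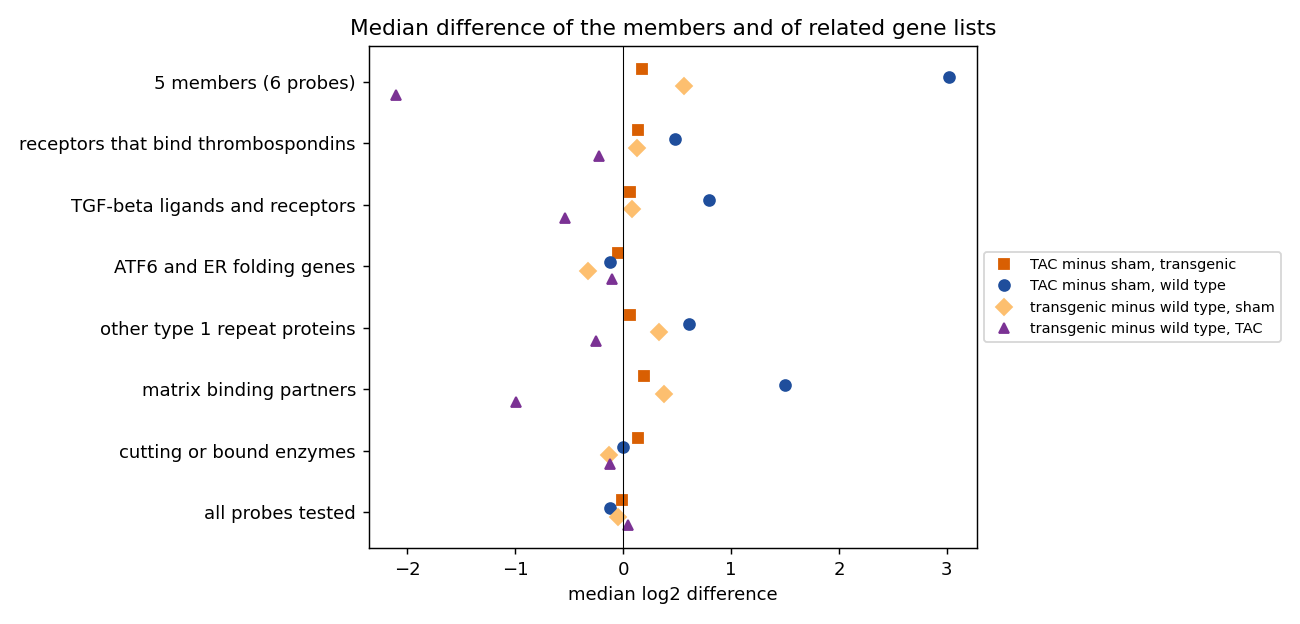
Median log2 difference (horizontal axis) of the 6 thrombospondin probes, of each related gene list and of all probes tested (rows), with a symbol for each comparison. The thrombospondins had medians of 0.18 for TAC in transgenic hearts and 3.02 for TAC in wild-type hearts, and the matrix binding partners 0.19 and 1.5.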

How the data were processed

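Left ventricular RNA was hybridised in a single colour (Cy3) to 12 Agilent arrays. Per the file headers, the array files hold intensity values written by Feature Extraction 10.7.3.1, as a background-subtracted processed signal and median spot signals. The deposited table is in log2 units and tracks the arrays' own log2 signals after percentile scaling and centring on each probe's median (r of at least 0.9996). The submitters' processing notes name RMA without its role.

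From 43020 non-control spots, outlier spots were left out and the 75th percentile subtracted on the log2 scale. Transcript accessions were matched to symbols with a GRCm38.p6 gene table (26424 of 39429 probes). Tests used limma 3.58.1 (R 4.3.3) with 1 mean for each group, over 30347 probes well above background on at least 3 arrays, with two-sided moderated tests, 8 residual and 1.82 prior degrees of freedom and a median residual SD of 0.28. No arrays held identical values, and the number of arrays limits precision. For 3 arrays against 3 an exact permutation test cannot go below p = 0.1, so it made no calls. The steps were tested on simulated data.

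The members and lists were chosen with earlier results of these data known. Named genes were the members, up to 4 per list with the smallest p in the interaction and in wild-type TAC, the 5 most like each member, and check genes. Replicate numbers were not treated as pairs: 4 of 18 correlations between same-numbered arrays exceeded 0.1 (range -0.38 to 0.21). Alternatives changed the scaling, background correction, filter, variance model, block or set of arrays. Normexp used median spot signals with an offset of 50, so it replaced the processed signal as well.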

Additional observations from a re-analysis of the deposited data

Results flagged for a closer look

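The response to TAC differed between genotypes by the interaction term for 4 of the 5 members. The interaction was -4.52 for Thbs1, -2.01 and -1.94 for the Thbs3 probes, -3.19 for Thbs4 and -6.39 for Comp (limma adjusted p from 0.0135 to 0.0220). In each case the wild-type TAC arrays lay above the wild-type sham arrays, and of the transgenic groups only those of Thbs4 did not overlap. None of these 5 probes passed with slide as a fixed block (adjusted p from 0.166 to 0.171), with normexp background correction (0.0679 to 0.104) or without wild-type sham array 1 (0.0507 to 0.0614).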

How the results depend on the processing

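Among recomputed differences of the 6 probes, 718 stayed on their side of the threshold, 38 no longer passed and 4 newly passed, and no difference that passed changed its sign. For TAC in wild-type hearts, 5 probes passed, and 3 did with slide as a fixed block or with probes required above background on all 12 arrays, a filter that by its construction drops Thbs1, Thbs2 and Comp. For genotype in sham hearts, 0 passed, and 1 did under that filter and with a trended robust variance. For genotype under TAC, 5 passed, against 2 with normexp background correction, 3 under the 12-array filter, 0 with the slide block and 3 to 5 with an array left out. For the interaction, 5 passed, against 0 with normexp, 3 under the 12-array filter, 0 with the slide block and 0 to 5 with an array left out. The fixed slide block takes arrays on slides with a single group out of differences between groups, and leaves transgenic TAC resting on array 3. Other causes of the slide results, and the causes of the normexp results, were not tested. With slide as a random block 5 probes passed for wild-type TAC, genotype under TAC and the interaction, and 0 for the other comparisons.

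With a replicate block on the array numbers, which did not pair the arrays, the response to TAC passed for 0 probes in transgenic and 5 in wild-type hearts, and 0 passed for genotype in sham, 4 for genotype under TAC (Thbs1 lost) and 5 for the interaction. Over all probes, TAC in wild-type hearts called 6378 probes, 5312 with the replicate block, 1691 with normexp and 238 with the slide block, and the interaction 2119, 780, 0 and 0. The median of all probes for TAC in wild-type hearts was -0.12, against 0.02 with the percentile over probes bright on all arrays and 0.26 with normexp.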
